A study of Mus musculus with 12 samples.

Results

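The 4 control libraries of a 12-library RNA-sequencing series were used here to describe absolute expression levels in primary glial cultures of the mouse cortex. The libraries are labelled as vehicle controls and as primary cultured astrocytes; they were taken from the deposited count table by that label, and no library given thapsigargin or calcium-free medium was used. Per the labels' protocols, each preparation came from the frontal cortices of 1 wild-type CD1 mouse aged 3 to 5 days, grown in serum-containing medium with B27 supplement and 10 ng/ml epidermal growth factor. The flask was split at day 7 in vitro and cells were used 3 to 7 days after that. No purification by sorting is described, so each library is the sum over all cells in a dish. In such bulk samples, fewer cells of a type and less RNA per cell cannot be told apart.

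Astrocytes clear glutamate and potassium from the space around synapses, supply metabolites to neurons and are coupled to each other by gap junctions. They are not electrically excitable in the way neurons are, and much of their signalling runs through intracellular calcium. In the classical route a receptor coupled to a Gq protein activates phospholipase C, inositol trisphosphate (IP3) opens its receptor in the endoplasmic reticulum (ER), and SERCA pumps refill that store. When the store empties, STIM sensors in the ER membrane open ORAI channels in the plasma membrane, while plasma membrane pumps and exchangers push calcium out of the cell. Most of these steps can be served by several genes, and the culture's choice among them is what the family results describe.

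Library totals were 37.3 to 42.2 M counts (40.3 ± 2.13 M, SD, n = 4), so that 1 CPM (counts scaled to a library total of 1 M) stood for 37.3 to 42.2 counts. Replicate 4 stood apart from replicates 1 to 3. The SD of log2 ratios between libraries across expressed genes was 0.12 to 0.13 within replicates 1 to 3 and 0.34 to 0.35 in pairs with replicate 4. Xist, which is transcribed from the inactive X chromosome, was at 0.145, 0.149, 0.147 and 734 CPM in replicates 1 to 4, and the Y-linked genes Kdm5d, Eif2s3y, Uty and Ddx3y summed to 207, 210.0, 199 and 0.213 CPM. Replicate 4 therefore had the Xist-positive, Y-negative pattern of a female preparation and the other 3 libraries the opposite. The biological coefficient of variation was 11.6% over the 4 libraries and 2.702% over replicates 1 to 3. The series text calls the 4 libraries biological replicates, but the number of separate cultures behind replicates 1 to 3 is not stated, so each spread below measures these 4 libraries and may be partly technical. The value of replicate 4 is therefore printed apart wherever a result moves with it. Where list members lowest or highest in replicate 4 are counted, the share over all genes is not given. Such counts describe the list only. Values after ± are SDs over the 4 libraries (n = 4).

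A gene was counted as expressed at 1 CPM or more in each of the 4 libraries. That held for 13795 of 43322 genes (31.8%), and for 57.9% of the 22192 protein-coding genes. The median level of the expressed genes was 28.6 CPM. Levels of different genes are compared per kilobase (kb), as CPM divided by the combined length of all annotated exons of the gene. On that scale the nuclear protein-coding genes expressed had a median of 7.63 CPM per kb, a 90th percentile of 52.4 and a 99th percentile of 313.

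All 6 astrocyte markers were expressed, each above the median of expressed genes. They were Slc1a3, the glutamate transporter GLAST; Gfap, the intermediate filament protein of astrocytes; Aqp4, the water channel of astrocyte endfeet; Aldoc, the brain aldolase; Gja1, the gap junction protein connexin 43; and Sox9, a transcription factor of the glial lineage. Slc1a3 (gene ID 20512, chromosome 15, 8663608 to 8742648 in GRCm39) had 2601, 2687, 2597 and 2509 CPM in replicates 1 to 4 and ranked 15th of all genes by CPM. Gfap (gene ID 14580, chromosome 11, 102778162 to 102791368) had 1492, 1519, 1555 and 782 CPM, and the mean of replicates 1 to 3 was 1.95-fold that of replicate 4, without overlap. Aqp4 had 1011, 1000.1, 903 and 709 CPM and Gja1 440.2, 457, 431 and 339.6 CPM, in both cases lowest in replicate 4. Aldoc with 620.4, 623, 632 and 702 CPM and Sox9 with 154, 152, 154 and 163 CPM were highest there. The 6 markers summed to 6319, 6438, 6271 and 5204 CPM in replicates 1 to 4.

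The 16 further astrocyte genes were also all expressed, with a summed level of 15546 ± 1208 CPM. Kcnj10, the inward rectifier Kir4.1, had 1743, 1702, 1680.4 and 1601 CPM, Glul, the glutamine synthetase, had 1561, 1519, 1522 and 1699.9 CPM, and Aldh1l1, a folate enzyme used as an astrocyte label, had 719, 719, 736 and 754 CPM. The 3 lowest genes of the list were S100b, Gjb6 and Ntsr2. S100b, a calcium-binding protein, had 12.6, 13.8, 14.5 and 6.13 CPM, Gjb6, connexin 30, had 2.88, 3.01, 2.84 and 1.09 CPM and Ntsr2, a neurotensin receptor, had 17.0, 26.4, 24.7 and 26.3 CPM. S100b and Gjb6 were lowest in replicate 4 without overlap. Slc1a2, the glutamate transporter GLT-1 that dominates in adult cortex, had 284, 310.3, 295 and 369 CPM and was highest in replicate 4.

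Genes of radial glia and neural progenitors were expressed beside the astrocyte genes, 10 of 10, with 6057 ± 196 CPM in sum. Fabp7, the brain lipid-binding protein of radial glia, supplied most of it with 3808, 3772, 3657 and 3981 CPM, and the libraries' values lay close together. Nes, the progenitor filament protein nestin, had 982, 941, 996 and 1016 CPM, Sox2 had 305, 297, 293 and 301 CPM and Egfr, the receptor for the growth factor in the medium, had 86.3, 84.4, 83.3 and 127 CPM, highest in replicate 4. Hes5, a Notch target, had only 1.16 to 1.58 CPM. All 10 proliferation genes were expressed too. Top2a, the topoisomerase of dividing cells, had 500.5, 499.6, 488 and 665 CPM and Mki67 had 303, 299, 292 and 407 CPM. Each of the 10 was highest in replicate 4, with no share over all genes to set beside this count. The list summed to 2299.7 CPM there, against 1729.9 to 1756 CPM in the other libraries.

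Markers of other cell types were present at lower summed levels. Of 14 genes of microglia and macrophages, the immune cells of the brain, 12 were expressed and the list summed to 241, 248, 255 and 165 CPM. Csf1r, their growth factor receptor, had 31.2, 32.1, 34.0 and 23.6 CPM and the complement gene C1qa 29.3, 29.2, 31.3 and 16.6 CPM. In replicate 4, 13 of the 14 lay below every other library, with no share over all genes to set beside this count. Of 8 fibroblast and meningeal genes, 5 were expressed and the sum was 1427, 1393, 1485 and 571 CPM. In replicate 4, 5 of the 8 lay below every other library and 2 lay above, again with no share over all genes. The collagen genes Col1a1, with 592, 569, 622 and 72.6 CPM, and Col1a2, with 725, 717, 749 and 412 CPM, made up most of it, whereas the fibroblast matrix genes Dcn (0.544 to 0.970 CPM) and Lum (0.0473 to 0.402 CPM) were near 0. The part of these cells in the differences of replicate 4 was not tested.

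Neuronal, oligodendrocyte lineage, mural and ependymal lists each held a few genes at sizeable levels while others of their defining genes were near 0. Among 12 neuronal genes, 8 were expressed and the list summed to 415 to 456 CPM: Map2, a microtubule protein, had 217, 222, 201 and 214 CPM and Stmn2, a tubulin-binding stathmin, had 148, 146, 154 and 143 CPM. The neuronal nuclear protein gene Rbfox3 had 0 to 0.170 CPM, the vesicular glutamate transporter Slc17a7 0.0804 to 0.242 CPM and the synaptic gene Snap25 0.349 to 0.643 CPM. Of 6 oligodendrocyte progenitor genes 4 were expressed (1524 to 1693 CPM in sum), and of 8 oligodendrocyte genes 5 (208 to 248 CPM). Olig1, a bHLH factor of the oligodendrocyte lineage, had 1297, 1246, 1278 and 1416 CPM and ranked 59th of all genes, and Olig2 had 237, 242, 251 and 233 CPM. The lineage factor Sox10 (0 to 0.118 CPM) and the precursor receptor Gpr17 (0 to 0.0473 CPM) were near 0, as was the myelin gene Mog (0 to 0.0242 CPM). Olig1 and Olig2 were thus high in libraries where these 3 genes were near 0. These 3 do not stand for their lists, since the remaining progenitor genes were expressed. So were 5 of 8 oligodendrocyte genes, among them the enzyme gene Cnp with 189 to 223 CPM. Of 7 mural genes 3 were expressed (1888 to 2010.4 CPM in sum). Acta2, smooth muscle actin, had 1933, 1847, 1972 and 1956 CPM, but Myh11, smooth muscle myosin, had 0.560 to 0.691 CPM. Of 8 endothelial genes 2 were expressed (7.86 to 14.7 CPM in sum), Kdr at 5.63 to 6.92 and Flt1 at 1.54 to 6.57 CPM, and Cldn5 was at 0 in 3 libraries. None of the 5 red cell genes was expressed, with 0 to 0.315 CPM in sum. A count of 0 allows a level of up to 0.0710 to 0.0804 CPM in these libraries (3 counts, counting error only). Of 8 ependymal and choroid plexus genes 4 were expressed (204 to 224 CPM in sum). Foxj1, the master factor of motile cilia, had 180.2, 183, 202 and 191 CPM, with the ependymal genes Tmem212 (0 to 0.0249 CPM) and Ccdc153 (0.0536 to 0.299 CPM) near 0.

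Of the position lists, the pallial and telencephalic list had the highest sum, 476 to 518 CPM. The subpallial list had 31.4 to 34.8 CPM and the midbrain, hindbrain and spinal list 12.9 to 16.5 CPM. Lhx2, a LIM homeobox factor of the cortex, had 194, 188, 198 and 214 CPM. Of the 7 pallial and telencephalic genes, 6 were expressed, the exception being Emx1 with 0.199 to 0.456 CPM, while Emx2 had 31.3, 31.1, 32.2 and 40.5 CPM. Among 7 subpallial genes, 3 were expressed, with Dlx1 at 9.73 to 12.6 and Dlx2 at 13.2 to 15.5 CPM. Nkx2-1, the factor of the ventral telencephalon, had 8.40, 7.89, 8.27 and 0.845 CPM, and the mean of replicates 1 to 3 was 9.69-fold that of replicate 4. Of 11 midbrain, hindbrain and spinal genes, Otx2 alone was expressed, with 13.1, 12.5, 13.2 and 16.1 CPM, and Hoxa3, Hoxb5 and Hoxd4 were at 0 in all 4 libraries.

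**Figure D1:**
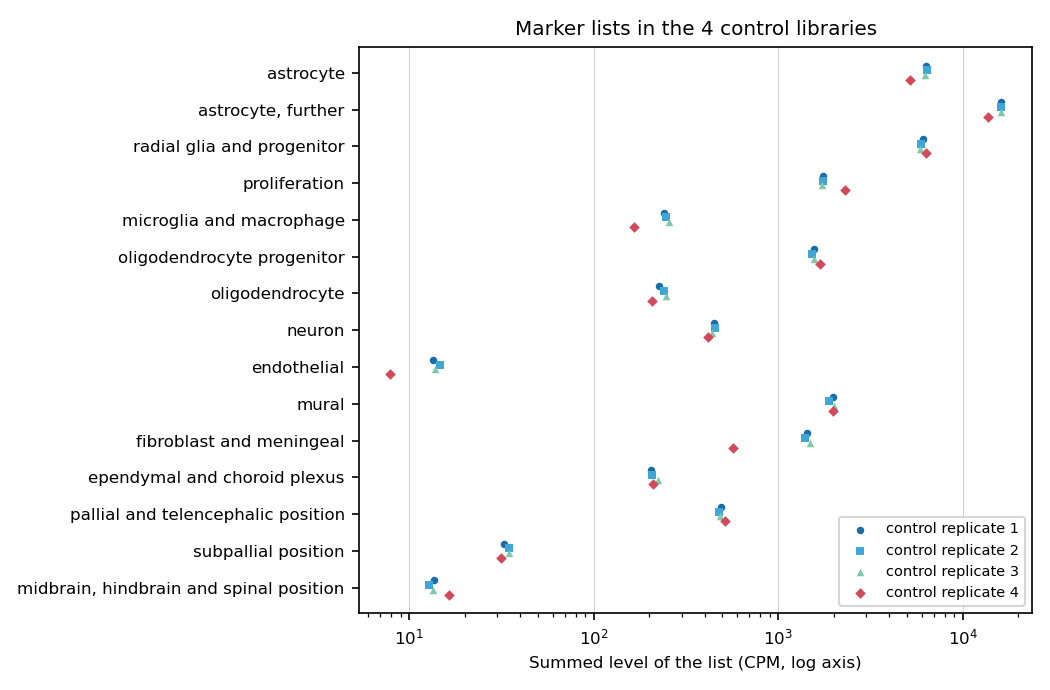
Summed CPM (log axis) of each cell type and position list, with 1 point per control library. The 2 astrocyte lists and the radial glia list lie highest, and replicate 4 lies apart from the other libraries for the fibroblast, microglia and proliferation lists. The red cell list, at 0 in replicate 4, is not drawn.

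Counts were spread over many genes. The 10, 100 and 1000 genes with the most counts took 4.96% ± 0.194, 18.0% ± 0.596 and 48.7% ± 0.439 of each library, and 1052 to 1105 genes were needed to reach 50% of all counts. Protein-coding genes took 98.8% ± 0.0710, long noncoding RNAs 0.682% ± 0.0501, mitochondrially encoded genes 2.73% ± 0.232 and 77 cytosolic ribosomal protein genes 1.93% ± 0.110.

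Pea15a had the highest mean CPM of any gene, with 8585, 8372, 8589.7 and 8008 CPM in replicates 1 to 4. It encodes a small death effector domain phosphoprotein enriched in astrocytes (gene ID 18611, chromosome 1, 172024295 to 172034371). Vim (gene ID 22352, chromosome 2, 13579122 to 13587637), the intermediate filament protein vimentin, had 5839, 5811, 5934 and 4731 CPM and was lowest in replicate 4. Igfbp2 had 5581, 5423, 5927 and 4985 CPM and Igfbp3 4519.8, 4398, 4478 and 3525 CPM. Both encode secreted proteins that bind insulin-like growth factors. Ckb (gene ID 12709, chromosome 12, 111635789 to 111638772), the brain creatine kinase, had 3310.3, 3288, 3436 and 3004 CPM, and Scd2, a fatty acid desaturase, had 2809, 2939, 2852 and 3091 CPM. Per kb, Fabp7 led the nuclear genes at 4993 ± 176 CPM per kb, ahead of Tmsb4x, the actin-binding thymosin beta 4, at 3360.2 ± 199. Igfbp2 followed at 3184 ± 227, Vim at 3042 ± 309.6, Pea15a at 2975 ± 97.0 and Cst3, the secreted protease inhibitor cystatin C, at 2855 ± 326 CPM per kb.

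The promoters of Pea15a, Vim and Ckb are shown because these abundant genes differ in the core motifs around their start; they were chosen with their levels known. Each runs from 250 bases before to 50 bases after the RefSeq start, 5′ to 3′ on the gene's strand, in the RefSeq table's build GRCm38.p6, which is not the GRCm39 build of the gene positions. Capitals mark every match, on either strand, to 3 core promoter motifs, so ATTGG in Vim and CCGCCC in Pea15a are matches on the opposite strand. The TATA box was searched as TATAAA. The CCAAT box was searched as the letters of its name. The GC box was searched as GGGCGG. The windows are Pea15a chr1:172206755-172207054, minus strand, Vim chr2:13574061-13574360, plus strand and Ckb chr12:111672289-111672588, minus strand.
Pea15a: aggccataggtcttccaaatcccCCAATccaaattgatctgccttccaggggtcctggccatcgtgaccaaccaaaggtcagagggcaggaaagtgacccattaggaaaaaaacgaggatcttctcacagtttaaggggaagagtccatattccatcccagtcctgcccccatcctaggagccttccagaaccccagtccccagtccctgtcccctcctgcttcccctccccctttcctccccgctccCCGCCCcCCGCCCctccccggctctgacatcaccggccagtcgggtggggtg
Vim: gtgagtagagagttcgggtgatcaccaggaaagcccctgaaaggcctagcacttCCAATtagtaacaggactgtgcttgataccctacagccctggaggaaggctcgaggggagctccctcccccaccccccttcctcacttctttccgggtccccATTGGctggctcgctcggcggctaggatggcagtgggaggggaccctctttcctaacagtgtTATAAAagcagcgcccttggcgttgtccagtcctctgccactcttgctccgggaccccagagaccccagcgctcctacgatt
Ckb: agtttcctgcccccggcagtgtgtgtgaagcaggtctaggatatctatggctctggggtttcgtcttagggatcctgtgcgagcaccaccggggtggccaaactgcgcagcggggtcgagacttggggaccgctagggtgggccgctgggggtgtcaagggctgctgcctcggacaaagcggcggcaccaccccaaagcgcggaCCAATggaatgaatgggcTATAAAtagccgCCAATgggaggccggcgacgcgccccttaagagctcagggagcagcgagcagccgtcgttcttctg

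Vim has a TATAAA match starting 32 bases before its start and 2 CCAAT matches, and Ckb a TATAAA match starting 28 bases before and 2 CCAAT matches. Pea15a has no TATAAA match in this window, 1 CCAAT match and 2 GC box matches, of which the first spans the start and the second lies after it. Of the 100 nuclear protein-coding genes highest per kb, 74 had 85 promoters in the RefSeq table. TATAAA was found in 13 of these 85 (15.3%), in 7.07% of 13714 promoters of expressed genes and in 13.6% of all 32851 promoters of the same length. CCAAT was found in 44.7%, 38.0% and 37.4%, and GGGCGG in 52.9%, 62.0% and 35.7% of the same sets. In the 3 windows shown no match overlaps another, and a match describes the sequence, not a used site.

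Among the 25 genes with the most counts, Ncan, the chondroitin sulfate proteoglycan neurocan, had 2706, 2729, 2787 and 1351 CPM and Fth1, the ferritin heavy chain, had 2829.5, 2812, 2871 and 1740.2 CPM. Both were lowest in replicate 4 without overlap. Sparc, a matricellular glycoprotein, had 2909.7, 2812, 2911 and 2782 CPM and Slc1a3, described above, differed little among libraries. Others of this group were the translation factors Eef1a1 (3931 ± 205 CPM) and Eef2 (2069.8 ± 124), Actb (2903 ± 102.4), the peroxiredoxin Prdx6 (2135 ± 305), the mitochondrial ATP synthase subunit Atp5b (2279 ± 45.3) and the cyclin gene Ccnd1 (2129 ± 142). All 13 mitochondrially encoded protein genes were expressed. COX1, a core subunit of cytochrome oxidase, had the highest mean per kb of all genes, with 5646, 5345, 5136 and 4808 CPM per kb in replicates 1 to 4. Fabp7 was above it in replicate 4, with 4998, 4949.9, 4799 and 5225 CPM per kb in the same order. ND6, which alone among the mitochondrially encoded protein genes is read from the opposite strand, was the lowest of them with 15.3, 15.1, 43.1 and 43.8 CPM, low in replicates 1 and 2 and nearly 3-fold higher in replicates 3 and 4. Among the 25 genes highest per kb, the 123-base miRNA entry Mir6236 reached 2278, 2399, 2161 and 935 CPM per kb, on 115 to 295 CPM.

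**Figure D2:**
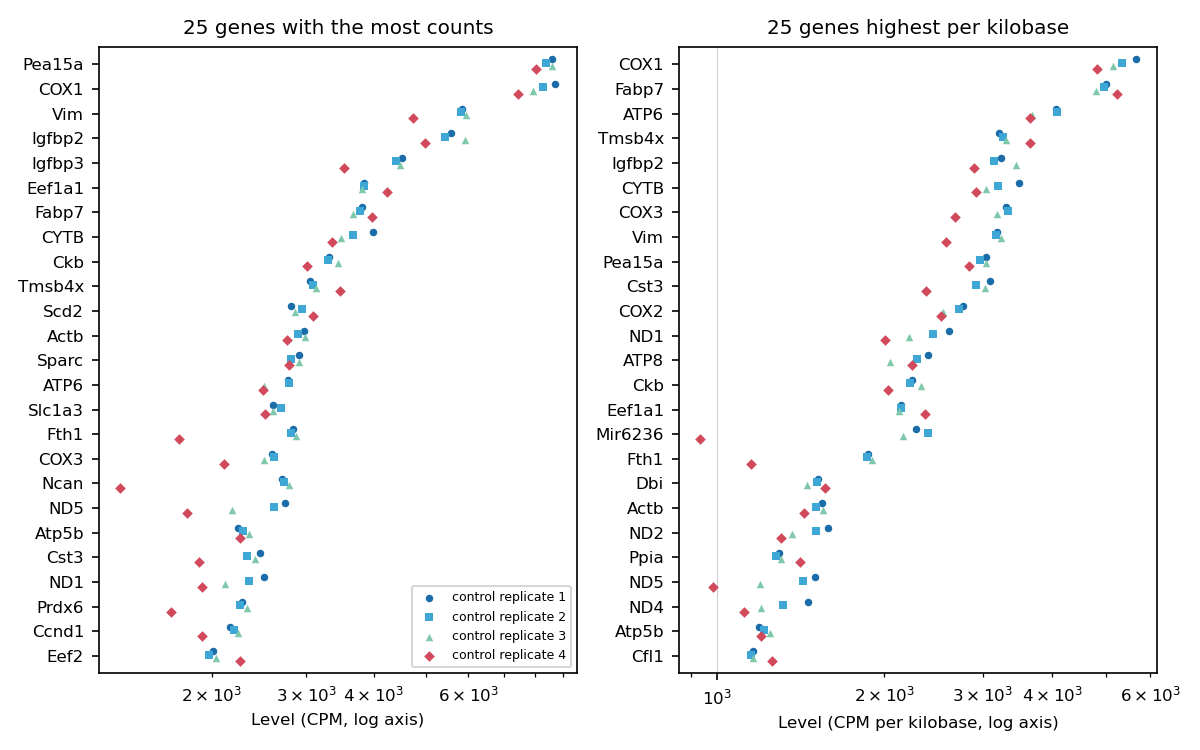
The 25 genes with the most counts (left, CPM) and the 25 highest per kilobase of combined exon length (right, CPM per kb), both on log axes, with 1 point per control library. Pea15a heads the left panel and COX1 the right, and replicate 4 lies left of the other libraries for Ncan, Fth1 and Mir6236.

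Calcium pumps, channels, receptors and transporters were arranged in 50 families of 267 genes, of which 159 (59.6%) were expressed, against 57.9% of all protein-coding genes. In 45 families the same member had the highest level per kb in all 4 libraries. The leader took over 90% of the family's summed level in 11 families and under 50% in 12. Between the leader and the next member, 49 families gave a ratio, and in 44 of them the exact two-sided sign-flip permutation test over the 4 libraries gave p = 0.125. This is the smallest p that 4 libraries can give, so no family could pass 0.05. The leader and the next member were picked by their means over these same libraries. Where their order holds in every library p takes this value, so it adds no support to the order. The test also counts each library as an independent unit, which is not known. Of 106 neighbouring pairs of expressed members, 20 had ranges over libraries that overlapped. Because combined exon length counts every annotated exon, shares were also computed with the length of the principal transcript of each gene, an alternative chosen after the data were seen, and that value is given where it changes the leader or moves a printed ratio or share by over 1.5 times. Ratios are given as the mean of log2 ratios over libraries, turned back into a fold.

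A single isoform dominated the pumps of the ER and of the Golgi. Atp2a2 (gene ID 11938, chromosome 5, 122591576 to 122640288), the widely used SERCA pump SERCA2 that loads the ER, had 90.6, 89.3, 89.96 and 88.6 CPM per kb in replicates 1 to 4 and took 99.6% ± 0.0622 of its family. Atp2a3 had 0.313 ± 0.0927 CPM per kb and Atp2a1, the muscle form, 0.00705 to 0.0895 over the libraries. Atp2c1, the Golgi pump for calcium and manganese, had 20.3, 18.98, 18.8 and 18.1 CPM per kb, and its relative Atp2c2 was at 0 in 2 libraries. For both leaders the 4 libraries lay close together.

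Transcripts for extrusion across the plasma membrane were split between members. Of the PMCA pumps, Atp2b4 (gene ID 381290, chromosome 1, 133630411 to 133728797) had 21.6, 20.9, 21.8 and 15.7 CPM per kb and Atp2b1 had 12.1, 11.8, 11.4 and 12.5. Atp2b4 was higher in all 4 libraries, 1.66-fold on average, but with principal transcript lengths the ratio was 1.13-fold and it led in 3. Atp2b2 had 0.723 ± 0.180 CPM per kb, and Atp2b3 was not expressed. Of the sodium-calcium exchangers, Slc8a1 (NCX1) had 2.48, 2.45, 2.37 and 1.77 CPM per kb and Slc8a2 (NCX2) 2.25, 2.03, 2.23 and 1.94, with overlapping ranges and Slc8a2 ahead in replicate 4. This near tie rested on length: Slc8a1 has 19854 bases of combined exons and a principal transcript of 3180 bases, and with the latter it led 4.61-fold and took 80.7% of the family. Among potassium-dependent exchangers Slc24a3 had 1.69 ± 0.168 CPM per kb and took 80.4% ± 3.48 (3.08-fold over the next member with principal lengths, 6.04-fold with combined lengths).

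Of the ER release channels, IP3 receptors were far above ryanodine receptors. Itpr1 had 5.50, 5.11, 5.21 and 6.04 CPM per kb, Itpr2, the form most linked to astrocyte calcium signals, had 3.96, 3.88, 3.83 and 3.21, and Itpr3 had 0.593 ± 0.0997. Itpr1 was ahead in all 4 libraries, with the widest gap in replicate 4, where Itpr2 was lowest. With principal lengths the pair was level (1.04-fold), and Itpr1 led in 1 library. Ryr2, the highest ryanodine receptor, had 0.109, 0.0910, 0.111 and 0.0935 CPM per kb, below every library's value for each IP3 receptor. Ryr3 had 0.0721 ± 0.00313 CPM per kb and Ryr1 was not expressed.

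All 5 genes of the store-operated entry pathway were expressed, with means from 2.35 to 9.26 CPM per kb around the median of 7.63 for expressed nuclear protein-coding genes. The sensor Stim1 had 8.68, 8.54, 9.48 and 10.3 CPM per kb. Its relative Stim2 had 8.01, 8.03, 7.88 and 6.37 CPM per kb and was lowest in replicate 4. Stim1 was ahead in each library, 1.22-fold on average and 1.98-fold with principal lengths. Of the pore subunits, Orai1 had 9.49, 9.39, 9.84 and 8.15 CPM per kb and Orai3 8.85, 9.56, 10.1 and 8.34, so that these 2 could not be ranked; Orai2 lay below both with 2.26, 2.1996, 2.46 and 2.49. With principal lengths Orai1 was ahead of Orai3 in 4 of 4 libraries, 1.34-fold. Trpc1, a canonical TRP channel, had 3.35 ± 0.133 CPM per kb.

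Other cation channel families were led by a single member, except the mixed group of mucolipin, two-pore and polycystin channels, which are endolysosomal and ciliary. Trpm7, a channel fused to a kinase, had 8.43, 8.38, 8.10 and 9.96 CPM per kb and took 82.3% ± 0.934 of 8 TRPM genes. Piezo1, the mechanically gated channel, had 10.5, 9.92, 10.2 and 14.9 CPM per kb, highest in replicate 4, and exceeded Piezo2 72.5-fold. Of 6 TRPV genes Trpv2 alone was expressed, at 0.519 ± 0.0602 CPM per kb, and Trpv4, an osmosensitive channel, had 0.0928 ± 0.0315. In the endolysosomal and ciliary group Mcoln1, mucolipin 1, with 11.5 ± 0.603 CPM per kb and Tpcn1, an endolysosomal channel gene, with 11.5 ± 0.793 could not be ranked. Pkd2, the polycystin channel, had 7.69 ± 0.226, and led that group with principal lengths at 34.3%.

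The pore subunits of voltage-gated calcium channels were below the median of expressed nuclear protein-coding genes. Cacna1a, the P/Q-type pore, had 4.85, 4.69, 5.03 and 4.46 CPM per kb and Cacna1h, a T-type pore, 2.45, 2.82, 2.62 and 2.55. Cacna1d and Cacna1c, the L-type pores, had 0.406 ± 0.102 and 0.202 ± 0.0507 CPM per kb and were lowest in replicate 4. The auxiliary subunits were led by Cacnb3 (8.43 ± 0.493 CPM per kb) and Cacna2d1 (1.92 ± 0.0117 CPM per kb). Cacna2d1 exceeded the next alpha-2-delta gene 3.06-fold, and 7.35-fold with principal lengths.

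**Figure D3:**
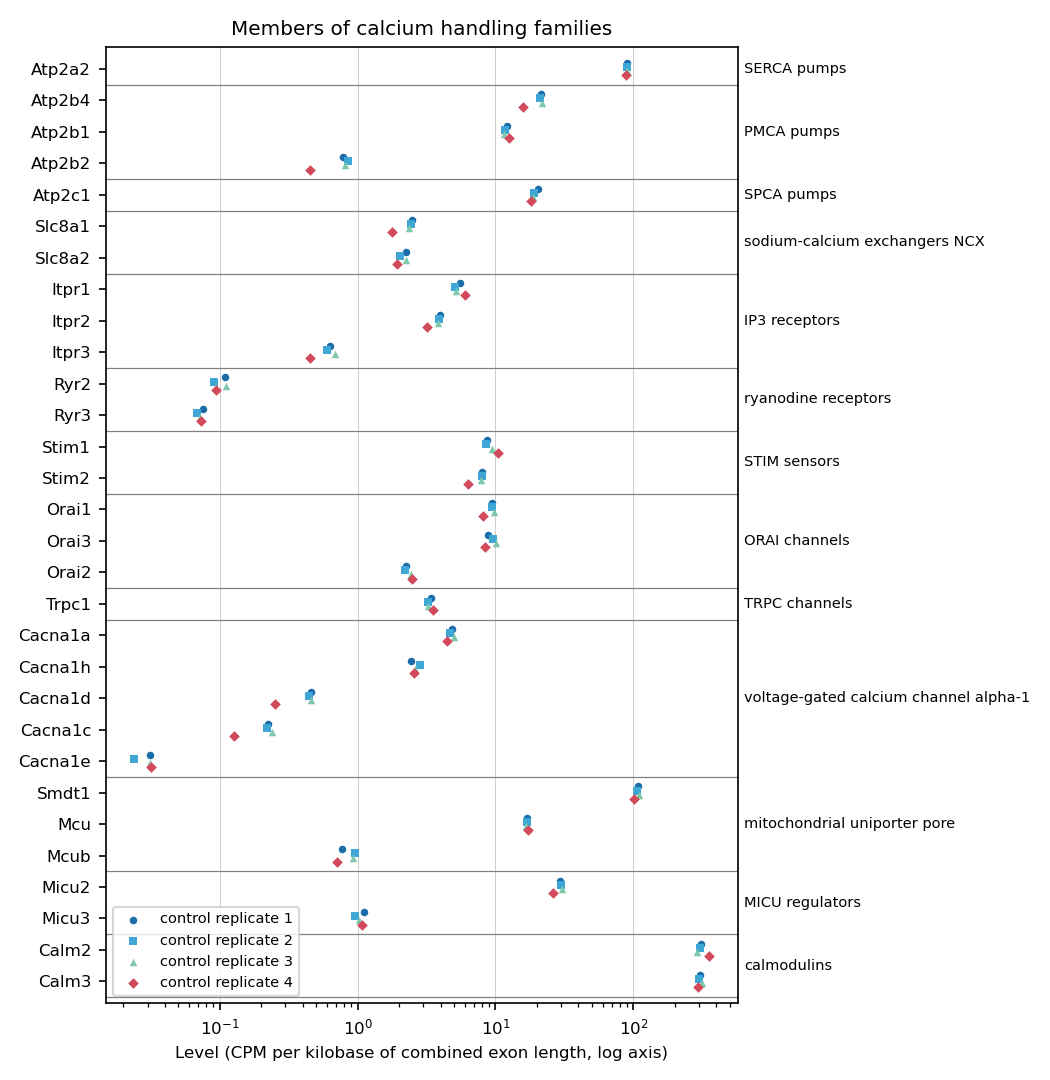
Levels of members of the calcium handling families (CPM per kb of combined exon length, log axis), with 1 point per control library and families separated by lines. Atp2a2 and Atp2c1 are the only expressed members of their families, while the points of Slc8a1 and Slc8a2, Orai1 and Orai3, and Calm2 and Calm3 overlap.

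Mitochondrial uptake genes were all expressed. Smdt1, the small EMRE subunit of the uniporter, had 108, 106, 109.8 and 101 CPM per kb, Mcu, the pore, had 16.9, 16.9, 16.8 and 17.3, and Mcub, its inhibitory relative, 0.766, 0.961, 0.922 and 0.715. Mcub was thus the lowest of the 3 in every library. Of the gatekeepers, Micu2 had 28.9 ± 1.84 CPM per kb and Micu3 1.05 ± 0.0679. The outer membrane channels Vdac2, Vdac1 and Vdac3 had 164 ± 1.78, 133 ± 3.32 and 101.8 ± 4.98 CPM per kb, and Vdac1 led with 55.0% when principal lengths were used.

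Of the calcium readers described here, the calmodulin genes had the highest levels. Calm2 had 308, 302, 288 and 355 CPM per kb and Calm3 305, 302, 312 and 295. Both genes encode the same calmodulin protein, and Calm2 was ahead of Calm3 in 3 libraries, with overlapping ranges. Of the CaM kinase II genes, Camk2g had 17.5 ± 1.55 CPM per kb, Camk2d 13.7 ± 0.471, Camk2b 10.2 ± 0.966 and Camk2a, the main form of forebrain neurons, 2.63 ± 0.336. Camk2d led by principal length with 40.6%. Among the catalytic subunits of the phosphatase calcineurin, Ppp3cb (22.1 ± 0.981 CPM per kb) was above Ppp3ca (13.4 ± 1.16), an order that turned with principal lengths (Ppp3ca 61.2%).

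Genes for the Gq protein and phospholipase C steps were expressed. Gna11 had 36.8 ± 0.760 and Gnaq 22.5 ± 0.685 CPM per kb, and both encode Gq class alpha subunits. Of 10 phospholipase C genes 9 were expressed. Plcb3 had 33.1, 33.7, 34.3 and 35.8 CPM per kb and Plcd4 29.9, 30.0, 30.8 and 26.9. Plcb3 was ahead in every library, though Plcd4 had the larger share by principal length (30.4%).

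Receptor families were mostly carried by 1 or a few members. The highest was F2r, the thrombin receptor PAR1, with 138, 137, 136 and 132 CPM per kb, and it took 93.8% ± 0.794 of its family. Ednrb (gene ID 13618, chromosome 14, 104052051 to 104083248), the endothelin B receptor, had 84.6, 83.5, 77.5 and 87.3 CPM per kb and exceeded Ednra 47.1-fold. The lipid receptor S1pr1, for sphingosine 1-phosphate, had 52.2, 54.7, 53.4 and 47.7 CPM per kb and S1pr3 22.2, 21.8, 21.6 and 15.2. Adora1, the inhibitory adenosine A1 receptor, had 32.4, 31.7, 32.1 and 23.4 CPM per kb. Adora2b and Adora2a behind it could not be ranked, since replicate 4 was lowest for Adora2b (5.70, 6.501, 5.71 and 1.37 CPM) and highest for Adora2a (3.88, 6.75, 6.57 and 12.1 CPM).

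Glutamate receptor classes differed in how far a single member led. Grm5, the Gq-coupled receptor mGluR5 of young astrocytes, had 10.1, 10.1, 9.53 and 9.12 CPM per kb and took 85.6% ± 1.66. Grm3, the Gi-coupled form, had 1.43, 1.54, 1.37 and 0.957. With principal lengths Grm5 was 4.76-fold above Grm3, against 7.44-fold with combined lengths. All 4 AMPA receptor genes were expressed: Gria2, whose subunit limits calcium entry, had 20.99 ± 1.07 and Gria3 19.2 ± 0.473 CPM per kb. Grik5 led the kainate receptors with 14.5 ± 0.399 CPM per kb and a share of 89.8% ± 0.476. Among NMDA receptor genes Grin3a had 2.98 ± 0.494 CPM per kb, while Grin1, the subunit required in these receptors, had 0.296 ± 0.0388.

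Each of the P2Y and P2X receptors had a mean under 10 CPM per kb. P2ry1, the Gq-coupled ADP receptor, had 7.57, 7.83, 7.95 and 7.28 CPM per kb and P2ry2 2.60 ± 0.256. P2rx4 had 4.55 ± 0.664 and P2rx7 2.59 ± 0.287 CPM per kb. P2ry12, also in the microglial list, had 1.64 ± 0.234. Of 9 adrenergic receptors 7 were expressed. Adrb1 had 7.79, 7.29, 8.32 and 7.32 CPM per kb and Adra1d 6.94, 6.79, 7.44 and 4.22, with Adrb1 ahead in each library and overlapping ranges, and Adra1d had the larger share by principal length (34.4%). Adra1b, with 13.04, 13.2, 14.1 and 6.13 CPM, was over 2-fold lower in replicate 4. Lpar6 led the lysophosphatidic acid receptors with 4.66 ± 0.262 CPM per kb, but Lpar1 did so with principal lengths (39.3%). Muscarinic and histamine receptors had low levels, with Chrm2 at 1.18 to 2.01 CPM and Hrh1 at 2.25 to 2.89 CPM. Gabbr1 had 8.31 ± 0.479 CPM per kb, whereas Gabbr2, its partner in a working GABA-B receptor, had 0.190 ± 0.0561.

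Transporters and channels of glutamate, potassium and water homeostasis had high levels. Glutamate transporters, inward rectifiers, aquaporins and connexins had clear leaders, while the leading sodium pump beta gene took 59.7% ± 6.38 of its family. Slc1a3 had 390.3, 403, 389.6 and 376 CPM per kb against 20.98, 22.9, 21.8 and 27.3 for Slc1a2, a 16.8-fold difference with Slc1a2 highest in replicate 4. Kcnj10 (gene ID 16513, chromosome 1, 172168777 to 172201652) had 247, 241, 238 and 227 CPM per kb and took 98.7% ± 0.258 of 15 inward rectifiers. Its usual partner Kcnj16 had 2.33, 2.29, 1.58 and 6.94 CPM, over 2-fold higher in replicate 4. Aqp4 took 96.5% ± 0.283 of 11 aquaporins and Gja1 95.2% ± 0.314 of 20 connexins. Atp1b2, the glial beta subunit of the sodium pump, had 346, 359.8, 356 and 208 CPM per kb and led in each library, by 1.36-fold in replicate 4 and up to 2.29-fold in the others.

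Of the GABA and glycine transporters, Slc6a11 (GAT-3) had 20.5 ± 1.25 CPM per kb and the glycine transporter Slc6a9 7.66 ± 1.09. Slc2a1, the GLUT1 glucose transporter, had 34.6, 39.3, 38.8 and 45.2 CPM per kb, with Slc2a3 at 7.47 ± 0.943. The lactate transporter Slc16a1 (MCT1) had 62.0, 64.5, 63.1 and 43.6 CPM per kb. Slc16a3 (MCT4) had 2.40, 9.98, 8.90 and 24.5 CPM, lowest in replicate 1 and highest in replicate 4, so the share of Slc16a1 ran from 86.1% in replicate 4 to 98.3% in replicate 1. Of the volume-regulated anion channel genes, Lrrc8b (14.0 ± 0.570 CPM per kb), the obligatory subunit Lrrc8a (12.97 ± 1.22) and Lrrc8c (12.1 ± 1.31) lay close together. Each was above the next in all 4 libraries, with ranges over libraries that overlapped.

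**Figure D4:**
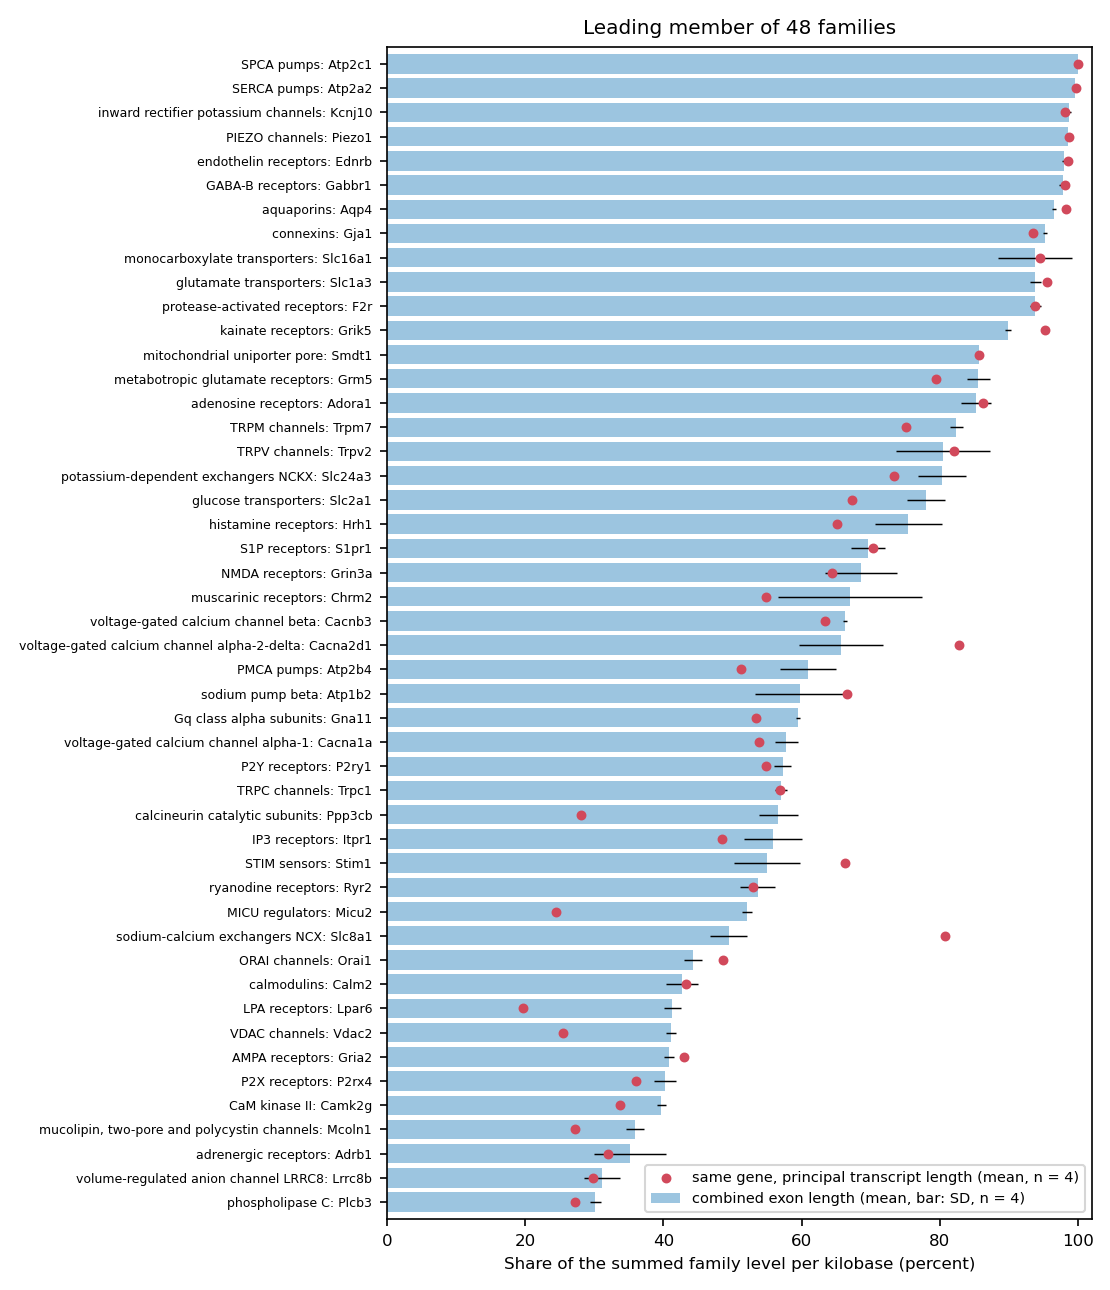
Share of the leading member in the summed level per kb of 48 of the 50 families (bars start at 0; mean over 4 control libraries, lines show the SD). Red points give the share of the same gene with principal transcript lengths, and they lie farthest from the bar for Slc8a1, Ppp3cb, Micu2, Lpar6, Cacna2d1 and Vdac2.

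Most of the spread among the control libraries moved with replicate 4. The median coefficient of variation of expressed genes was 6.98% over 4 libraries and 3.44% over replicates 1 to 3. Of 14408 genes at 1 CPM or more in all of replicates 1 to 3 or in replicate 4, 1.6% were at least 2-fold lower in replicate 4 than in the lowest other library and 0.673% at least 2-fold higher than in the highest. Among family members compared, 9 of 170 (5.29%) were lower by that measure and 2 were higher. The 9 were Slc24a4, Cacna1g, P2ry13, Adora2b, Adra1b, Gabbr2, Slc2a4, Aqp1 and Gjb6, and the 2 were Slc16a3 and Kcnj16. Of the 50 most variable protein-coding genes, replicate 4 was farthest from the rest in 49, as the lowest in 39 and the highest in 10.

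After the Y-linked genes, the most variable was Eef1a2, a translation factor gene of muscle and neurons, with 52.3, 49.1, 54.1 and 1.80 CPM. Col1a1, described above, came next, and Ucp2, a mitochondrial carrier, had 147, 153, 164 and 20.3 CPM. In these genes replicate 4 was lowest and replicates 1 to 3 lay close together. Nnat, the imprinted gene neuronatin, had the opposite order with 14.7, 14.2, 13.7 and 82.4 CPM. The most stable genes at 100 CPM or more were Septin9 (580.4, 582, 582 and 582 CPM), Atp5a1 (1575, 1576, 1578 and 1573 CPM) and Dynll1 (189, 189, 189 and 188 CPM), followed by Stt3b and Phlpp1.

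**Figure D5:**
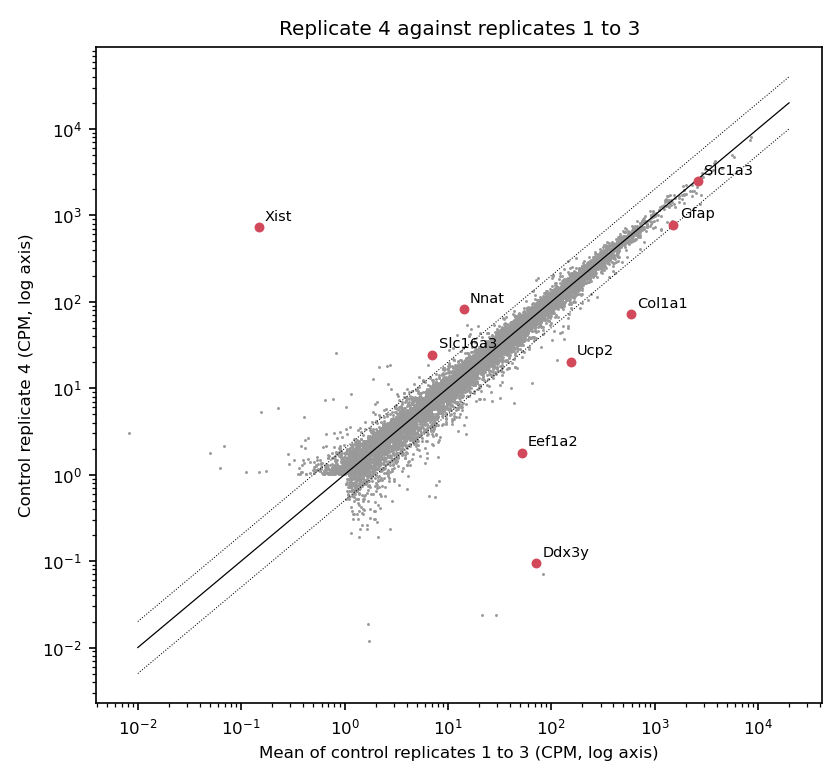
CPM in control replicate 4 against the mean CPM of control replicates 1 to 3 (both log axes), with 1 point per gene at 1 CPM or more in all of replicates 1 to 3 or in replicate 4. Genes at 0 on either axis are not drawn. The solid line marks equal levels and the dotted lines 2-fold differences, and the named genes include Xist above and the Y-linked Ddx3y below the rest.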

How the data were processed

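Poly-A RNA was sequenced in 12 libraries, of which the 4 labelled as vehicle controls were used, with groups and replicate numbers from the sample titles. The tools listed in the submitters' processing notes are STAR 2.7.2b, featureCounts 1.6.4 from Subread, cutadapt 1.17 and bcl2fastq 2.20.0.422, with GRCm39 as the build. How they were run, including strand and read length, is not given in the sources used here, so overlapping, antisense and near-identical genes are uncertain. Per the labels' protocols, 500 ng of RNA with an integrity number above 9.3 went through 14 PCR cycles into stranded libraries near 275 bp. The deposited table holds the authors' estimated counts for 43322 genes, with gene IDs, symbols, biotypes, positions and combined exon lengths. Between 14.7% and 15.7% of the values in a control library were not whole.

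CPM was computed from the deposited counts over the total of all genes, without rounding, and divided by combined exon length for levels per kb. That length sums the exons of all isoforms and can understate genes with many annotated exons. Principal transcript lengths (APPRIS, GENCODE M21) were found for 267 of 267 family genes. Counts were rounded for the common dispersion of edgeR 4.0.16 and the size factors of DESeq2 1.42.0 (R 4.3.3), and the scripts were tested on simulated data. With 1 group there was no test between groups. Leaders of families were compared with the next member, both picked by their means in the same libraries, by an exact sign-flip permutation test over libraries. No molecular identifiers are described, so limits at a count of 0 (3 counts) cover counting error only.

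Named genes were the 25 with the highest mean CPM, the 25 highest per kb, the 10 protein-coding genes with the largest SD of log2 CPM at 10 CPM or more, the 5 with the smallest at 100 CPM or more, and members of 74 lists (50 families, 16 marker lists and 8 groups). Members and lists were chosen with earlier results of these data known. A few of these genes are not reported here, but they count in the sums and totals of their lists. The chromosome of 41635 of 41639 genes was the same in the deposited table and in RefSeq. Alternatives were leaving out each library, TMM and DESeq2 scaling, levels not divided by length, principal transcript lengths, other thresholds for expression and restriction to nuclear protein-coding genes.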

Additional observations from a re-analysis of the deposited data

Results flagged for a closer look

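A value was singled out when 1 of the 4 control libraries lay far from the other 3, by the gap to its nearest neighbour as a share of the whole range. Of 271 values examined (printed gene levels, list sums, shares of family leaders and library shares), 74 met this, where chance flags about 1 in 20 groups of 4 independent values. These values share libraries and genes and are not independent. Some genes were named for their spread among these libraries, and lists were chosen with earlier results known. The 74 therefore cannot be set against that chance rate. Replicate 4 was the distant library in 69 of them, as the lowest in 48 and the highest in 21. The values below are those of the distant library, in CPM unless a share is named, and no explanation was tested.

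Among list sums, replicate 4 was lowest for the lists astrocyte (5204), further astrocyte (13737), microglia and macrophage (165), endothelial (7.86) and fibroblast and meningeal (571), and highest for proliferation (2300). Of the sex-linked genes, Xist was highest there (734) and Kdm5d (0.0237), Eif2s3y (0.071), Uty (0.0237) and Ddx3y (0.0947) were lowest. Markers with replicate 4 lowest were Gfap (782), Gjb6 (1.09), C1qa (16.6), Flt1 (1.54), Col1a1 (72.6), Col1a2 (412) and Nkx2-1 (0.845). Markers with replicate 4 highest were Aldoc (702), Egfr (127), Top2a (665), Mki67 (407), Emx2 (40.5), Gpr17 (0.0473) and Cldn5 (0.0237), the last 2 on 1 to 3 counts with the other libraries at 0. Mog (0.0242) stood out in replicate 1 and Tmem212 (0.0249) in replicate 2, each on about 1 count.

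Of the most abundant genes, replicate 4 was lowest for Vim (4731), Igfbp3 (3525), Ncan (1351), Fth1 (1740), Prdx6 (1679), Mir6236 (115), Apoe (728) and Clu (560) and highest for Eef1a1 (4237). In the calcium families it was lowest for Atp2b4 (145), Atp2b2 (5.82), Slc8a1 (35.2), Slc24a4 (1.47), Stim2 (31.4), Cacna1d (4.38), Cacna1c (2.01) and Camk2a (11.4) and highest for Piezo1 (134) and Tpcn1 (88.5). Receptors with replicate 4 lowest were S1pr3 (68.2), Adora1 (136), Adora2b (1.37), P2ry12 (3.46), Adra1b (6.13), Gabbr1 (44.2) and Gabbr2 (0.592). Transporters and channels with replicate 4 lowest were Atp1b2 (861), Slc16a1 (193), Slc2a4 (5.09) and Aqp1 (0.308), and Kcnj16 was highest (6.94). Of the most variable genes, Eef1a2 (1.8) and Ucp2 (20.3) were lowest and Nnat highest (82.4). Vdac2 (267) and Septin9 (580) were lowest in replicate 1, and Ppp3cb (99.2) in replicate 3, all within a narrow range.

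The share of the leading family member was highest in replicate 4 for Itpr1 (62.2%), Plcb3 (31.3%), Adrb1 (42.9%), Gabbr1 (98.6%), Slc2a1 (82%) and Lrrc8b (35.1%), and lowest for F2r (92.6%), Atp1b2 (50.2%) and Kcnj10 (98.3%). Ribosomal protein genes took 2.1% of its counts, the highest of the 4.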

How the results depend on the processing

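No paired analysis was possible because the only group used was the control group and no result comes from a test between groups. Scaling by TMM or DESeq2 factors moved none of the printed gene levels by more than 1.02-fold, and 13797 to 13802 genes were then expressed. At a threshold of 0.5 CPM 14848 genes were expressed and at 5 CPM 11353, and with a library left out 13834 to 14045. With nuclear protein-coding genes alone the 10, 100 and 1000 top genes held 4.55%, 16.7% and 47.9% of counts, and by level per kb 9.31%, 27.6% and 60.4% of the sum. The biological coefficient of variation was 2.702% without replicate 4 and up to 13.6% with another library left out. Leading members were the same under every alternative run in 38 of 50 families. Without length, 9 families had another leader, and the share of the original leader was 14.0% for Mcoln1, 23.6% for Micu2, 26.5% for Vdac2, 24.6% for Calm2, 27.4% for Camk2g, 40.9% for Ppp3cb, 42.5% for Gna11, 30.9% for P2rx4 and 24.9% for Lpar6. With principal transcript lengths, an alternative chosen after seeing the data, 8 had another leader, and the original leader held 27.2% (Mcoln1), 24.5% (Micu2), 25.4% (Vdac2), 33.8% (Camk2g), 28.1% (Ppp3cb), 27.3% (Plcb3), 32.0% (Adrb1) and 19.7% (Lpar6). Both alternatives differ from the main result in the divisor only. Leaving out a library changed the leader in 3 families: to Orai3 without replicate 1 (share of Orai1 43.7% to 44.8% over the 4 libraries left out), to Tpcn1 without replicate 1 or 3 (Mcoln1 35.5% to 36.4%) and to Calm3 without replicate 4 (Calm2 41.6% to 43.5%). Of 199 gene levels printed, 12 moved by over 1.5 times with 1 library left out. Without replicate 4 these were Xist (to 0.147 CPM), Nnat (14.2), Slc16a3 (7.09), Kcnj16 (2.07), Atp2a1 (0.0610) and Sox10 (0.0345), with Gpr17 and Cldn5 at 0. Without replicate 1 Rbfox3 was at 0.0411 CPM and Mog at 0, and without replicate 2 Atp2c2 was at 0.00789 CPM and Tmem212 at 0. Depth limits the genes under 1 CPM, which rest on fewer than about 42.2 counts.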

Other observations

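Groups outside the calcium and transport families gave further levels of the control cultures. All 10 genes of the ER lumen that bind calcium were expressed, and their summed level was 5253, 5261, 5189 and 5273 CPM in replicates 1 to 4, the most even of the 8 groups listed. Calr, the main calcium store protein of the ER, had 1017, 1015, 1062 and 1056 CPM and Nucb2, a nucleobindin, had 7.38 to 9.94 CPM. All 10 glycolysis genes were expressed and summed to 6638, 7274, 7260.3 and 7885 CPM. In this group 9 of 10 genes were highest in replicate 4, among them Ldha, lactate dehydrogenase A, with 676, 822, 802 and 897 CPM, whereas Ldhb was lowest there with 671, 652, 671 and 598 CPM. For this group and those that follow, the share of all genes lowest or highest in replicate 4 is not given.

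The 11 extracellular matrix genes summed to 11196, 11012, 11213 and 9109 CPM and 8 of them were lowest in replicate 4. The 8 lysosomal genes summed to 7717, 7609.8, 7863 and 6689.6 CPM, with 7 lowest in replicate 4. Psap, the precursor of the saposins, was the exception with 1373, 1374, 1476 and 1729 CPM. Of the lipid carriers, Apoe had 989.9, 1003, 1036 and 728 CPM and Clu, apolipoprotein J, 719.5, 729, 725 and 560.5 CPM. Against a 99th percentile of 313 CPM per kb for expressed nuclear protein-coding genes, Apoe was at 385 ± 58.2 and Clu at 304 ± 36.6 CPM per kb. The 10 actin and tubulin genes summed to 10666, 10605, 10993 and 11085 CPM, and the intermediate filament genes to 8322, 8281, 8495 and 6539 CPM. Synm, the filament protein synemin, had 8.90 to 10.4 CPM.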
